A study of Mus musculus with 2 samples.

Results

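The major urinary protein genes measured here were Mup3, Mup7, Mup10, Mup11, Mup17 and Mup20, chosen by their symbols alone: 6 of the 32285 gene rows of each count matrix. A further 16 rows carried a symbol made of Mup and a number. The counts came from single-cell RNA-seq of livers from male mice, with 1 library of wild-type littermates (WT) and 1 library of mice lacking miR-33 in hepatocytes (HKO, miR-33 loxP alleles deleted by a Cre transgene driven by the Albumin promoter, which is used to target hepatocytes). Both groups received chow up to 8 weeks of age and then CD-HFD, a diet rich in fat and lacking choline, over 6 months, and each library pooled the cells of 3 livers, with hepatocytes and sorted nonparenchymal cells mixed. Animals within a pool could therefore not be told apart, no test between the genotypes was possible, and every interval given below is an exact 95% interval that covers counting error only.

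Major urinary proteins are small lipocalins, barrel-shaped carriers of hydrophobic molecules. In mice they are made mainly by hepatocytes, secreted into the blood and filtered into the urine, where they bind volatile pheromones and mark individual identity. Their genes lie in a cluster of recent duplicates, are expressed more in males than in females and respond to the pulses of growth hormone that act through JAK2 and STAT5B. Mup20 encodes darcin, a male protein that is itself a pheromone, and Mup3 encodes a more diverged member of the family.

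All 22 Mup genes lay on mouse chromosome 4 between 59956804 and 62150863 of the GRCm38 (mm10) assembly, an interval of 2194 kb. The GENCODE M21 annotation, from which these places were taken, also listed 26 Mup pseudogenes on chromosome 4. The 6 genes were annotated as protein-coding with 7 exons each, all on the minus strand: Mup7 (ENSMUSG00000073842) at chr4:60066469-60070475, Mup10 (ENSMUSG00000078680) at chr4:60578260-60582199, Mup11 (ENSMUSG00000073834) at chr4:60658466-60662411, Mup17 (ENSMUSG00000096688) at chr4:61591929-61595871, Mup20 (ENSMUSG00000078672) at chr4:62050234-62054158 and Mup3 (ENSMUSG00000066154) at chr4:62083476-62087342. Coding sequences of Mup7, Mup10, Mup11 and Mup17 were 98.4% to 98.9% identical to each other, whereas Mup20 matched them at 90.1% to 91.4% and Mup3 at 82.4% to 83.7%. A stretch of 60 coding bases from an aligned part of the 6 transcripts shows this difference, read 5′ to 3′ from the annotated transcripts and starting at coding base 212 in Mup7, Mup10 and Mup17, 215 in Mup11 and Mup20 and 224 in Mup3. Capitals mark the bases that differ from the commonest base at that place among the 6 genes.
Mup10: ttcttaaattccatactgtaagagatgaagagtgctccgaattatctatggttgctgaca
Mup11: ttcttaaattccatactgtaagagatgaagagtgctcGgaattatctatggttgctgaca
Mup7: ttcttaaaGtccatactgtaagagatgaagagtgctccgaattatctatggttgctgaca
Mup17: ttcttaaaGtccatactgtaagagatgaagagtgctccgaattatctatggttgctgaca
Mup20: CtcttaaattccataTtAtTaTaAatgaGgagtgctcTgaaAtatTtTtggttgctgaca
Mup3: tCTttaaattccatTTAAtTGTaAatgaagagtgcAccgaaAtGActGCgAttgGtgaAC
In this stretch Mup7 and Mup17 had the same sequence and differed from the commonest base at 1 place, as did Mup11, while Mup20 differed at 11 places and Mup3 at 20.

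The likeness of the copies bears on what the counts can show, since Cell Ranger counts by default only reads that it places in a single gene. Of the windows of 90 bases within the last 500 bases of each transcript, where these 3′ libraries read, 100% were found in no other gene for Mup3, 90.3% for Mup20, 65.2% for Mup17, 31.1% for Mup11, 0.487% for Mup7 and 0% for Mup10. Mup3 and Mup20 counts could thus be assigned to their genes, and 9 of the 22 Mup genes had no such window at all. Counts of Mup7, Mup10, Mup11 and Mup17 are uncertain, because reads from these genes could be dropped or split among near-identical copies (the nearest relative was Mup12 for Mup7 at 99.3%, Mup9 for Mup10 at 99.6% and Mup18 for Mup11 at 99.8% of coding bases). How much of their level was lost in this way was not tested.

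The WT library held 130451427 unique molecular identifiers (UMIs, each a counted RNA molecule) in 30078 cell barcodes and the HKO library 52563185 in 20000. After filters, 1911 WT barcodes (median 20380 UMIs) and 3831 HKO barcodes (median 3977 UMIs) were hepatocyte-like, carrying all 10 hepatocyte markers at a summed 82466 and 71542 counts per 1000000 UMIs (CPM). Another 20161 WT and 10170 HKO barcodes showed no marker set of another cell type and were shallower than 2 times the commonest depth of their library, 2565 and 789.6 UMIs. Their hepatocyte markers summed to nearly the same level, 81989 and 70501 CPM with all 10 detected. These are called barcodes of free RNA depth, and only depth, not the markers, set them apart from hepatocyte-like barcodes, so that shallow hepatocytes and droplets holding only RNA released from broken cells could not be told apart. The smallest hepatocyte-like depth therefore differed, 5133 UMIs in WT and 1580 in HKO. T and NK-like, endothelial-like, macrophage-like and B and plasma-like barcodes numbered 154, 69, 81 and 30 in WT and 496, 139, 127 and 159 in HKO. The deleted miRNA had no row in the matrices, so the deletion could not be checked in these counts, and its host gene Srebf2 was at 24.9 CPM in WT and 19.3 CPM in HKO hepatocyte-like barcodes. Both libraries carried the RNA of male mice, with Ddx3y at 73.0 and 79.0 CPM and Xist at 0.143 and 0.340 CPM.

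In hepatocyte-like barcodes, Mup20 and Mup3 made up nearly all counts of the 6 genes. Mup20 stood at 10806 CPM (10777 to 10835) in WT and 14909.8 CPM (14863 to 14956) in HKO, and Mup3 at 5415 CPM (5394 to 5436) and 8147 CPM (8113 to 8182). Together they held 99.7% of the member UMIs in WT and 99.5% in HKO, and the 6 genes summed to 16271 and 23163 CPM. For scale, Mup20 UMIs amounted to 29.7% of the UMIs of Alb, which encodes serum albumin, in WT and 54.1% in HKO. Values of 3′ ends are not divided by transcript length, and the 6 transcripts were alike in length, from 927 to 984 bases.

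The other 4 genes were counted at levels 100 or more times lower. Mup11 was at 25 CPM (23.6 to 26.4) in WT and 45.5 CPM (43.0 to 48.2) in HKO. Mup17 was at 16.7 CPM (15.5 to 17.8) and 45.7 CPM (43.1 to 48.3). Mup7 was at 4.00 CPM (3.46 to 4.60) and 10.4 CPM (9.24 to 11.7), and Mup10 at 4.08 CPM (3.53 to 4.68) and 4.2 CPM (3.45 to 5.06). Mup20 and Mup3 thus came first in both libraries. Behind them Mup11 stood above Mup17 and the intervals of Mup7 and Mup10 overlapped in WT, whereas in HKO the intervals of Mup11 and Mup17 overlapped and Mup7 stood above Mup10. Of the 16 other Mup genes, 2 had a mean of at least 10 CPM over both libraries, Mup21 with 64.0 CPM in WT and 142 in HKO and Mup12 with 15.7 and 7.68. Low counts were not limited to genes with shared tails: Mup4 and Mup6, for which every tail window was their own, were at 0.591 and 0.306 CPM in WT, values given because of that property and chosen after they were seen.

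**Figure D1:**
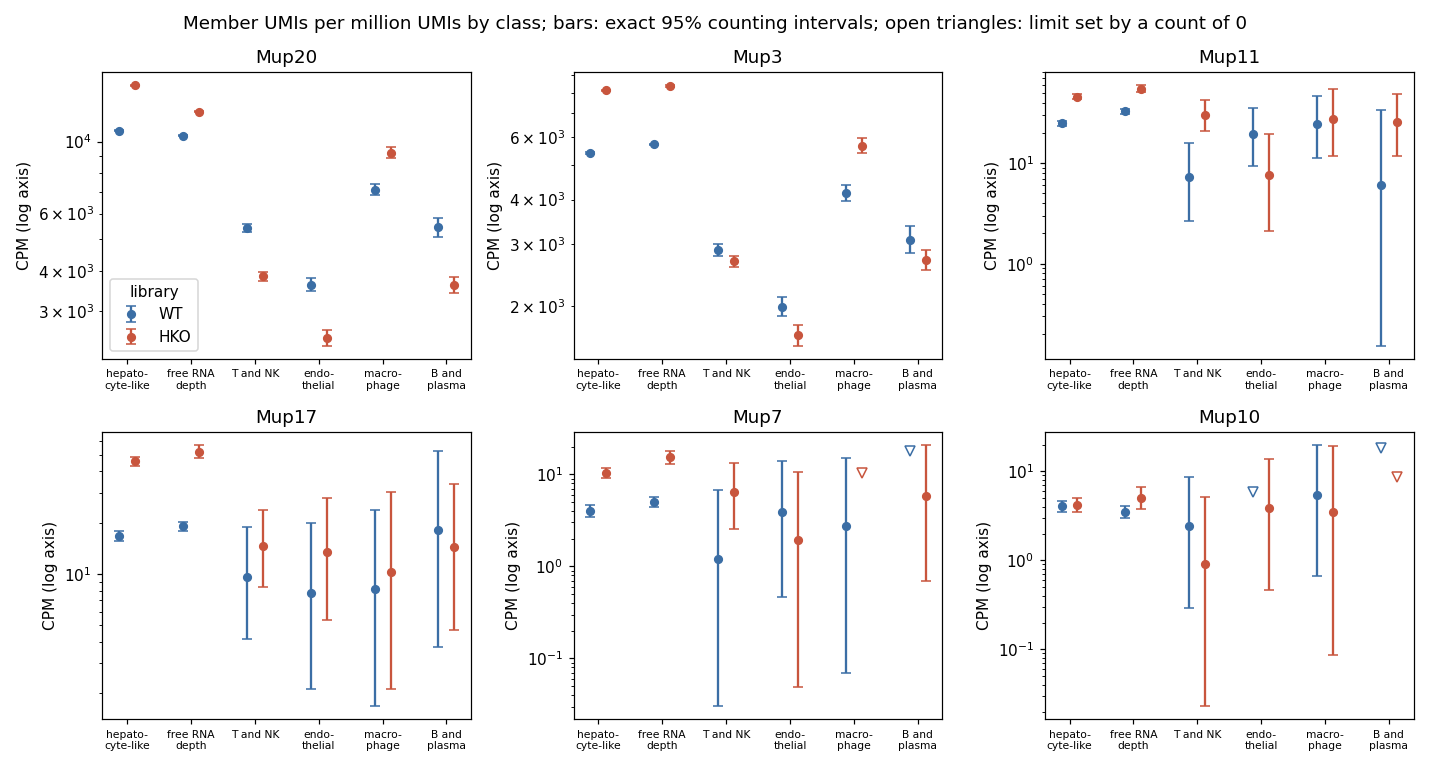
Level of each of the 6 genes (CPM, log axis) by class of barcodes in the WT (blue) and HKO (red) libraries, with exact 95% counting intervals as bars. Open triangles mark a count of 0 and are drawn at the level that 3 UMIs would give. Mup20 and Mup3 lie above 1000 CPM in every class, while the levels of the other 4 genes stay below 100 CPM.

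Single barcodes spanned a wide range of Mup20. The lowest, median and highest hepatocyte-like barcode held 278, 8041 and 97312 CPM in WT and 0, 10864 and 92437 CPM in HKO, with 0 and 1 barcodes at 0. Mup3 was less spread, with 271, 4919 and 27955 CPM in WT and 34.8, 7365 and 43765 CPM in HKO. The middle of the distribution ran from 4181 CPM at the 25th to 11989 CPM at the 75th percentile for Mup20 in WT and from 5004 to 17149 CPM in HKO, so the libraries overlapped over most of their range.

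To compare spreads at a common depth, barcodes were thinned to 700 UMIs, leaving out 159 shallower WT barcodes of free RNA depth and 2 WT T and NK-like barcodes. At that depth the variance of Mup20 counts was 7.70 times their mean in WT and 7.99 times in HKO hepatocyte-like barcodes, where counting from a single common level gives a value of 1. Mup3 reached 2.60 and 3.19. In barcodes of free RNA depth the same ratio was 1.14 for Mup20 and 1.06 for Mup3 in WT, close to 1, but 1.98 and 1.41 in HKO. The share of thinned barcodes with no Mup20 UMI was 5.76% in WT and 4.93% in HKO hepatocyte-like barcodes, whereas counting from their mean alone gives 0.0838% and 0.00865%. Hepatocyte-like barcodes thus held both more barcodes low in Mup20 and more barcodes high in it than barcodes of free RNA depth did.

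**Figure D2:**
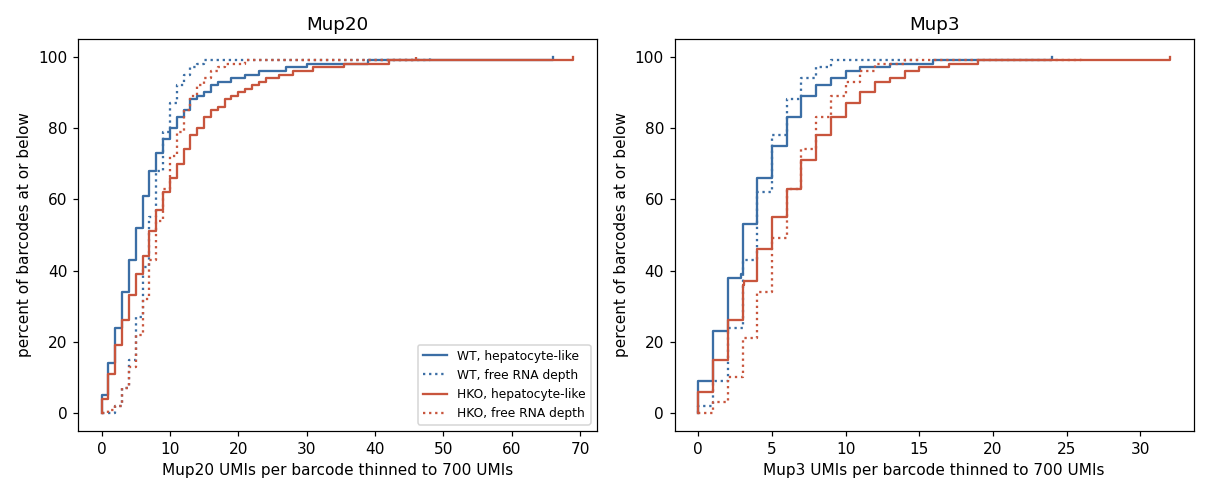
Cumulative percent of barcodes by their count of Mup20 (left) and Mup3 (right) after thinning to 700 UMIs, in WT (blue) and HKO (red), for hepatocyte-like barcodes (solid) and barcodes of free RNA depth (dotted). The solid curves start higher at low counts and reach further at high counts than the dotted curves, which climb steeply around their mean.

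Mup11 and Mup17 were concentrated in few barcodes. Mup11 was at 0 in 1503 of 1911 WT and 3480 of 3831 HKO hepatocyte-like barcodes, and Mup17 at 0 in 1625 and 3466. The 1% of barcodes with the most Mup11 UMIs held 35% of them in WT and 61.4% in HKO, and for Mup17 the shares were 45.0% and 57.6%. For Mup20 the same share was 11.3% and 12.9%. A single HKO barcode of 4335 UMIs held 98 Mup17 UMIs, 8.11% of that library's hepatocyte-like total, and another of 20579 UMIs held 129 Mup11 UMIs, or 10.7%. Mup7 and Mup10 were too scarce to be described in this way, since after thinning to 700 UMIs 0.0523% to 0.940% of hepatocyte-like barcodes held a UMI of either. In WT the highest Mup17 barcode held 58 UMIs at a depth of 43807.

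Next, the levels of the HKO library were set against those of WT. The sum of the 6 genes was 1.42 (1.42 to 1.43) times its WT level in HKO hepatocyte-like barcodes. The HKO to WT ratio was 1.38 (1.37 to 1.39) for Mup20 and 1.5 (1.5 to 1.51) for Mup3, 1.82 (1.68 to 1.98) for Mup11, 2.74 (2.51 to 3.00) for Mup17 and 2.61 (2.17 to 3.15) for Mup7. For Mup10 the interval included 1, with a ratio of 1.03 (0.809 to 1.30). The ratios of the scarce members moved with the choice and weighting of barcodes: thinned to 1500 UMIs per barcode, which also weights barcodes equally, they were 1.95 for Mup10 and 4.13 for Mup17, with barcodes of unlike depth weighted equally 1.44 and 3.01, and with barcodes of 5000 to 20000 UMIs in both libraries 1.61 for Mup10 and 1.72 for Mup7. Of the 4 members with a mean of at least 10 CPM, 1 (Mup17) was at least 2-fold higher in HKO and 0 were at least 2-fold lower, beside 0.424% and 0.932% of the 7083 genes at that level. The median log2 ratio over those genes was -0.03, and 95.6% of them had a lower ratio than Mup20 and 97.7% a lower ratio than Mup3. Among the other Mup genes, Mup21 had a ratio of 2.22 (2.11 to 2.32) and Mup12 of 0.490 (0.418 to 0.573). Mup12 reached a mean of 10 CPM only through WT, and only 12.2% of its tail windows were its own, so its counts are uncertain. Whether neighbouring copies differed between the libraries in a single direction is therefore not read from this pair. These ratios compare 1 pool of animals with another, and differences between individual mice, dissociation or capture cannot be told apart from genotype.

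The difference was not the same in every group of hepatocyte-like barcodes. The commonest cluster of both libraries, led by Rab26os, A2ml1 and Csad, held 37.7% of the WT and 40.8% of the HKO hepatocyte-like barcodes, and in it the HKO to WT ratio was 1.39 (1.39 to 1.40) for Mup20 and 1.51 (1.5 to 1.52) for Mup3. In a cluster led by mitochondrial transcripts such as mt-Nd4l the ratios were 1.11 (1.09 to 1.12) and 1.29 (1.27 to 1.31). A cluster led by Mt1, Gsta1 and Gstp1 made up 4.60% of hepatocyte-like barcodes in WT and 27.1% in HKO, and Mup20 was lower in HKO within it, at a ratio of 0.537 (0.528 to 0.545), with Mup3 at 1.09 (1.06 to 1.12). In a cluster led by Egfros and unnamed noncoding RNAs the ratios were 0.673 (0.651 to 0.696) for Mup20 and 0.830 (0.796 to 0.864) for Mup3. A cluster led by Gm12744 and Cfd made up 12.9% in WT and 0.339% in HKO, too few in HKO for a ratio. Median depth within the other 4 clusters was between 7393 and 26650 UMIs in WT and between 2143 and 8212 in HKO. The part of this depth gap in the ratios was not tested within clusters.

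Depth moved with the Mup20 level in HKO, taken over hepatocyte-like barcodes and those of free RNA depth together. Below 5000 UMIs, where the WT barcodes were all of free RNA depth, Mup20 lay between 11695 and 13388 CPM in the 4 ranges of HKO and between 10305 and 10515 CPM in those of WT. Among barcodes of 5000 to 10000 UMIs, Mup20 was at 10849.9 CPM in HKO and 10578 CPM in WT. At 10000 to 20000 UMIs it was at 15522 and 9734 CPM, and at 20000 to 40000 UMIs at 20010.0 and 9152 CPM. Mup20 was thus higher in HKO in each of these ranges, with the smallest gap at 5000 to 10000 UMIs and the largest at 20000 to 40000. Above 40000 UMIs, where HKO held too few barcodes for a value, Mup20 in WT was higher as well, at 12686 CPM and 34.3% of Alb UMIs over 345 barcodes. Mup3 was also higher in HKO in the 3 ranges from 5000 to 40000 UMIs, at 6751, 7927 and 10096 CPM against 5722, 5439.6 and 5220.1 in WT. As a share of Alb UMIs, which does not depend on all other transcripts, Mup20 was at 43.8%, 56.6% and 63.6% in HKO and 28.2%, 26.7% and 25.8% in WT.

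**Figure D3:**
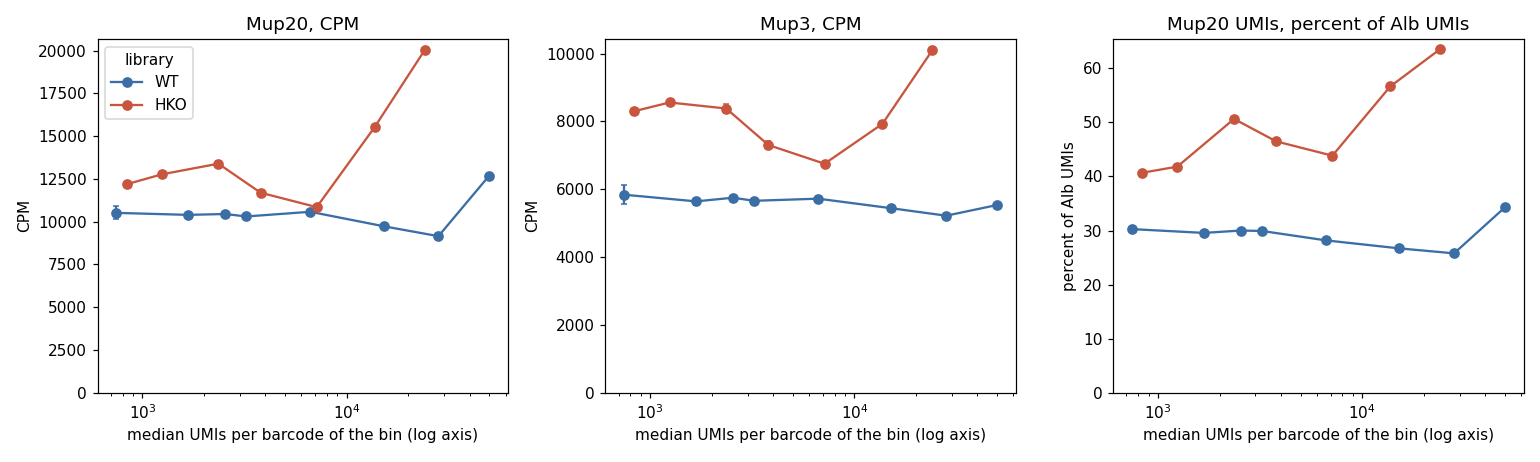
Mup20 and Mup3 levels (CPM) and Mup20 UMIs as a percent of Alb UMIs by depth, over hepatocyte-like barcodes and barcodes of free RNA depth together, in WT (blue) and HKO (red). Each point is a bin of depth placed at its median UMIs per barcode (log axis), with exact 95% counting intervals as bars in the first 2 panels, and the HKO curve of Mup20 climbs above 10000 UMIs while the WT curve stays near 10000 CPM until the deepest bin.

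Mitochondrial content moved with the levels as well. In HKO, Mup20 per 1000000 UMIs of nuclear genes was at 10086 in hepatocyte-like barcodes with under 2% mitochondrial UMIs, 18825 at 2% to 10%, 21263 at 10% to 20%, 15721 at 20% to 35% and 11731 at 35% to 50%. In WT the values in the same order were 10546, 14413, 13867, 11406 and 10729. Mup20 was thus lower in HKO than in WT in the barcodes with the fewest mitochondrial UMIs, whose median depth was 2403 UMIs in HKO and 25183 in WT, and higher in the other 4 ranges. Markers of erythroid cells also differed, at a summed 738 CPM in WT and 2548 CPM in HKO hepatocyte-like barcodes (7 and 6 of 7 listed genes detected), and their part in the ratios was not tested.

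Related gene groups were described beside the Mup genes in the same hepatocyte-like barcodes. Of the 19 listed genes of growth hormone signalling, 15 had a mean of at least 10 CPM, of which 1 was at least 2-fold higher in HKO and 0 at least 2-fold lower, with a median log2 ratio of -0.05 beside -0.03 over all genes. Its members went in both directions, 7 higher and 8 lower. The gene past 2-fold was Onecut1, a transcription factor of hepatocytes, at 12.9 CPM in WT and 55.3 in HKO. Ghr, the growth hormone receptor, was at 1335 CPM in WT and 1376 in HKO, and Igf1, which encodes the circulating growth factor that growth hormone induces, at 717 CPM in WT and 1009 in HKO. Zbtb20, a transcriptional repressor, was at 797 CPM in WT and 814 in HKO, and Egfr, the epidermal growth factor receptor, at 246 CPM in WT and 225 in HKO. Of 10 measured genes of 15 listed as male-biased, 0 were at least 2-fold higher and 1 lower, Elovl3, a fatty acid elongase, at 112 CPM in WT and 41.7 in HKO. The most abundant of these genes were Serpina1e at 319.6 CPM in WT and 339 in HKO, Cyp2d9 at 299.8 CPM in WT and 288 in HKO, Nudt7 at 101.2 CPM in WT and 134 in HKO and Ugt2b1 at 107 CPM in WT and 106 in HKO, and the list's median log2 ratio was -0.03. Only 3 of 15 listed female-biased genes were measured, of which Acot3, an acyl-CoA thioesterase, was at 13.7 CPM in WT and 30.8 in HKO, Cyp2b9 at 100.0 CPM in WT and 93.1 in HKO and Cyp17a1 at 8.10 CPM in WT and 14.5 in HKO. The median log2 ratio of these 3 was 0.84, which is the value of Cyp17a1. That gene reached a mean of 10 CPM only through HKO, so the median is not read as a shift of the list. Further genes of growth hormone signalling were chosen after their values were seen: Socs2 and Cish, feedback inhibitors that growth hormone induces, were below 10 CPM on average, at 3.43 CPM in WT and 10.2 in HKO and at 3.32 CPM in WT and 7.0 in HKO, with ratios of 2.98 (2.45 to 3.64) and 2.10 (1.70 to 2.61), and Bcl6, a transcriptional repressor, was at 66.9 CPM in WT and 35.9 in HKO. The list medians therefore do not describe single genes of these pathways.

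Other lipocalins and abundant secreted proteins of the liver were described in the same way. Among 8 measured lipocalins outside the Mup cluster, 0 were past 2-fold in either direction and the median log2 ratio was -0.12. Rbp4, the carrier of retinol, was at 3886 CPM in WT and 3658 in HKO, Ambp at 1377 CPM in WT and 989 in HKO, Orm1, an acute phase protein, at 806 CPM in WT and 925 in HKO and C8g, a complement subunit, at 763 CPM in WT and 642 in HKO. Lcn2, an acute phase lipocalin that binds bacterial siderophores, had the highest ratio of this list and was named after its value was seen, at 97.6 CPM in WT and 193 in HKO, 1.98 (1.91 to 2.06) times its WT level and above the ratios of Mup20 and Mup3. Of 22 genes of abundant secreted proteins, 3 were higher and 19 lower in HKO, 0 of them past 2-fold, beside 3236 higher and 3847 lower of all 7083 genes at that level, with a median log2 ratio of -0.21. Alb was at 36391 CPM in WT and 27556 in HKO, Apoa2 at 22561 CPM in WT and 19761 in HKO, Apoe at 18106 CPM in WT and 13278 in HKO and Apoc1 at 16697 CPM in WT and 18282 in HKO. Taken relative to Alb, the summed Mup genes were 1.88 times as high in HKO as in WT.

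Hepatocytes differ along the liver lobule from the portal triad to the central vein, and the Mup genes were followed along this axis. Hepatocyte-like barcodes were ranked within each library by a score of 10 pericentral genes minus 9 periportal genes, none of them a Mup gene, and cut in 3 equal bins, periportal, middle and pericentral. As a check, all 10 genes of a second pericentral list were higher in the pericentral bin of both libraries, as were 2 of 10 genes of a second periportal list in WT and 1 of 10 in HKO. Mup3 was higher at the periportal end and the 4 scarce members at the pericentral end in both libraries, while Mup20 was graded mainly in HKO.

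Mup3 stood at 6967, 5113 and 4207 CPM in the periportal, middle and pericentral bins of WT and at 10789.9, 7118 and 4984 CPM in those of HKO, a pericentral to periportal ratio of 0.604 (0.598 to 0.610) in WT and 0.462 (0.457 to 0.467) in HKO. Mup20 was nearly even across the WT bins, at 11324, 10729.6 and 10379.5 CPM, and graded in HKO, at 19928, 11832 and 9721 CPM, with ratios of 0.917 (0.911 to 0.923) and 0.488 (0.484 to 0.492). Alb, whose transcript is periportal, had ratios of 0.627 (0.624 to 0.629) and 0.521 (0.518 to 0.524) in these bins. Mup20 thus differed less than Alb between the outer bins of WT and slightly more in HKO, and whether the gradient differs between genotypes cannot be told apart from the difference between 2 pools.

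Mup11 ran the other way, at 4.06, 17.6 and 51.9 CPM from periportal to pericentral in WT and 5.74, 13.8 and 128 CPM in HKO, with ratios of 12.8 (9.96 to 16.7) and 22.2 (17.4 to 28.7). Mup17 did the same, at 3.44, 16.8 and 29.2 CPM and 4.51, 12.7 and 131 CPM, with ratios of 8.48 (6.43 to 11.4) and 29.0 (22.1 to 38.8). Reads of near-identical copies may be among the counts of Mup11 and Mup17. Mup7 had ratios of 2.88 (1.89 to 4.51) and 4.27 (3.17 to 5.83), and Mup10 of 1.98 (1.38 to 2.90) and 3.06 (1.94 to 4.95). Over all genes with a mean of at least 10 CPM in the outer bins, 2.07% had at least 2 times the periportal level in the pericentral bin of WT and 0.804% at most 0.5 times, against 2.83% and 1.14% in HKO. Mup7, Mup11 and Mup17 reached that mean only through the pericentral bin where they did so, and no count of members past 2-fold is therefore read against these shares. Subtraction of free RNA assumed that the profile at free RNA depth is added alike to every barcode of a library, which was not tested. That class may also hold shallow hepatocytes. Its thinned counts had a variance of 1.98 times their mean for Mup20 and 1.41 for Mup3 in HKO, against 1.14 and 1.06 in WT. With this profile subtracted at the commonest depth of each library, the Mup3 ratios were 0.569 in WT and 0.410 in HKO. The sizes of the scarce members' ratios moved with the choice of barcodes: for Mup11 they were 2.77 in WT and 10.4 in HKO with no depth minimum and 62.6 and 107 after free RNA subtraction, and for Mup17 2.65 and 11.2 with no depth minimum and 17.8 in WT after free RNA subtraction. For Mup7 in WT the ratio was 1.70 with no depth minimum, under 2-fold, and 4.33 with the second zone lists, and all of these values stayed above 1.

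Cut into 10 equal bins, Mup11 and Mup17 were gathered at the pericentral end. In the outermost pericentral bin, Mup11 was at 109.6 CPM in WT and 242 CPM in HKO, against 24.8 and 71.8 CPM in the bin beside it and 3.55 and 3.98 CPM in the outermost periportal bin. Mup17 was at 66.3 and 242 CPM, against 9.54 and 78.6 and then 2.76 and 3.09 CPM. This bin is where Glul, the glutamine synthetase of the hepatocytes that line the central vein and a gene of the score itself, stood at 1009 and 2559.7 CPM. Even there many barcodes held none of it: of 192 WT barcodes 89 had a Mup11 UMI and 63 a Mup17 UMI, and of 384 in HKO the numbers were 119 and 136.

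**Figure D4:**
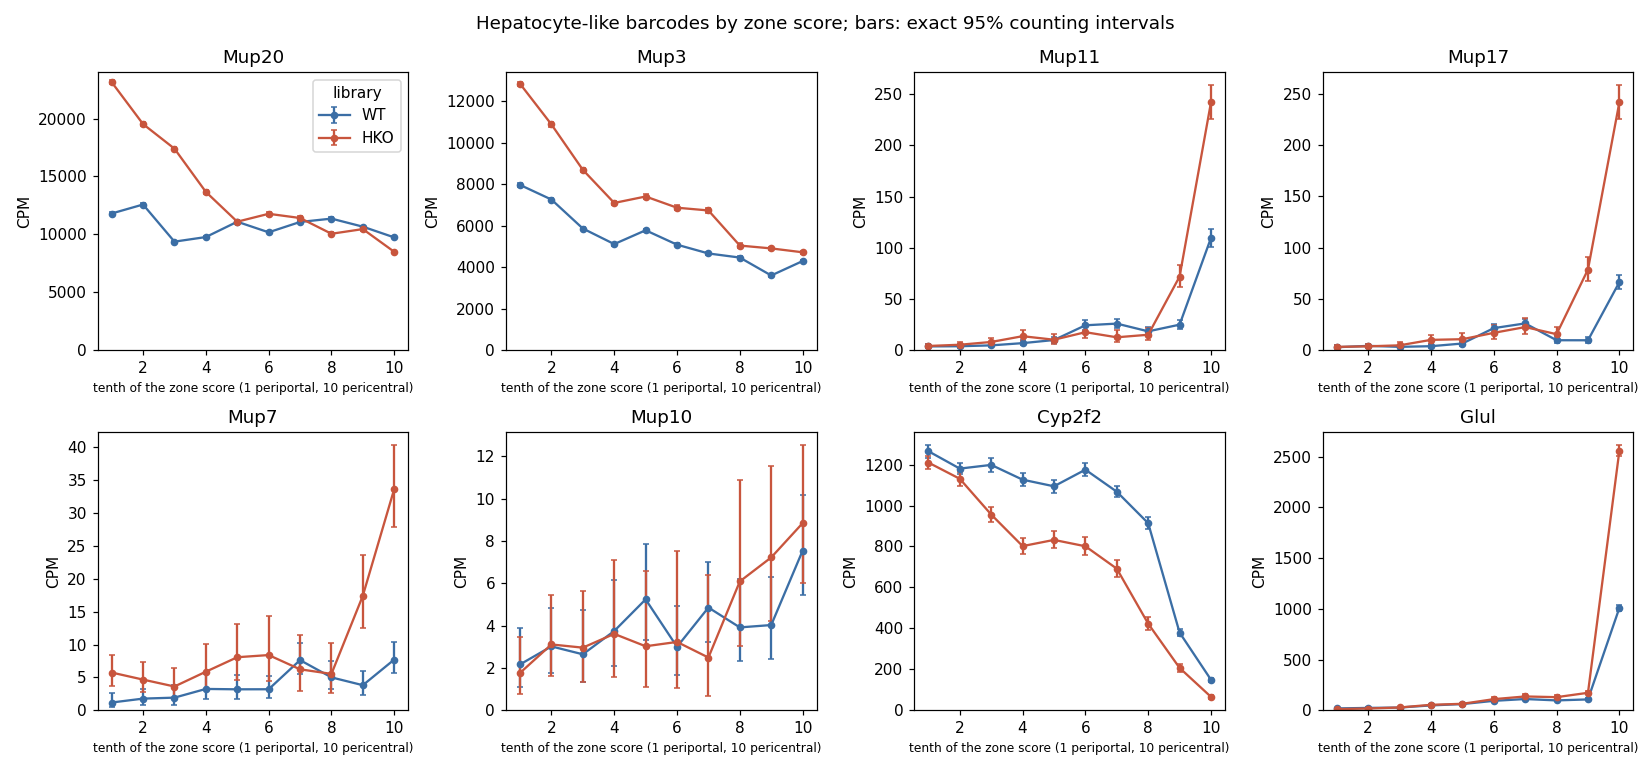
Levels (CPM) of the 6 genes and of the zone genes Cyp2f2 (periportal) and Glul (pericentral) in hepatocyte-like barcodes of WT (blue) and HKO (red), ranked by zone score and cut in 10 equal bins from periportal (1) to pericentral (10), with exact 95% counting intervals as bars. Mup3 declines toward the pericentral end in both libraries and Mup20 in HKO, whereas Mup11 and Mup17 jump in the last bin along with Glul.

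The HKO to WT ratio changed along the axis. For Mup20 it was 1.76 (1.75 to 1.77) in the periportal, 1.10 (1.09 to 1.11) in the middle and 0.937 (0.929 to 0.944) in the pericentral bin, and for Mup3 1.55 (1.54 to 1.56), 1.39 (1.38 to 1.41) and 1.18 (1.17 to 1.20). For Mup17 it was 1.31 (0.886 to 1.94), 0.752 (0.575 to 0.974) and 4.48 (4.02 to 4.99), and for Mup11 1.41 (0.996 to 2.01), 0.786 (0.608 to 1.01) and 2.46 (2.25 to 2.69). The ratios of Mup20 and Mup3 were thus highest in the periportal bin and those of Mup11 and Mup17 in the pericentral bin. For Mup7 the ratio was 2.67 (1.69 to 4.28), 1.49 (1.00 to 2.19) and 3.96 (3.05 to 5.16), with overlapping intervals in the outer bins, and for Mup10 0.860 (0.520 to 1.40), 0.934 (0.547 to 1.54) and 1.33 (0.944 to 1.86), where every interval included 1. Depth differed between the bins in HKO, with medians of 7803, 2735 and 3450 UMIs, against 21204, 18099 and 22299 in WT. With every barcode thinned to 1500 UMIs and ranked again, the pericentral to periportal ratio of Mup20 was 0.977 in WT and 0.613 in HKO. That of Mup3 in HKO was then 0.631, so neither was past 2-fold, and those of Mup11 and Mup17 in HKO were 8.94 and 10.4.

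Finally, the Mup genes were measured in barcodes of free RNA depth. Barcodes of free RNA depth held 50.4% of all member UMIs in WT and 24.4% in HKO, close to their 49.4% and 23.2% of all UMIs of the kept barcodes. These shares depend on which shallow barcodes were deposited, a choice not given in the sources used here, and the shallowest had 500 UMIs in WT and 770 in HKO. Hepatocyte-like barcodes held 48.0% and 72.1% of the member UMIs. The level of the 6 genes was nearly equal in both classes in WT, 16271 CPM in hepatocyte-like barcodes and 16210.2 CPM at free RNA depth, a ratio of 1.004 (1.001 to 1.007), and somewhat higher in hepatocyte-like barcodes in HKO, 23163 and 20874 CPM, a ratio of 1.11 (1.10 to 1.12).

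For Mup20 the ratio of hepatocyte-like to free RNA depth was 1.04 (1.03 to 1.04) in WT and 1.20 (1.20 to 1.21) in HKO, and for Mup3 0.945 (0.940 to 0.95) and 0.973 (0.965 to 0.981). These directions turned with the scaling, Mup20 in WT to 0.984 with barcodes weighted equally and Mup3 to 1.04 in WT and 1.004 in HKO over nuclear genes. Mup11 had ratios of 0.764 (0.709 to 0.823) and 0.826 (0.746 to 0.916), Mup17 of 0.877 (0.798 to 0.963) and 0.876 (0.789 to 0.973), Mup7 of 0.801 (0.662 to 0.969) and 0.676 (0.553 to 0.829) and Mup10 of 1.16 (0.944 to 1.42) and 0.832 (0.591 to 1.19). The genes of abundant secreted proteins had a median ratio of 1.02 (range 0.782 to 1.19) in WT and 1.01 (range 0.688 to 1.31) in HKO, and Mup20 and Mup3 lay within both ranges. Members at least 2-fold apart between the classes numbered 0 in either direction, where 3.09% of genes in WT and 0.29% in HKO were at least 2-fold higher in hepatocyte-like barcodes and 0.321% and 0.695% at least 2-fold lower. The difference between the libraries was also present at free RNA depth, with HKO to WT ratios of 1.19 (1.18 to 1.19) for Mup20, 1.46 (1.45 to 1.47) for Mup3, 1.69 (1.53 to 1.86) for Mup11, 2.75 (2.46 to 3.06) for Mup17, 3.10 (2.52 to 3.80) for Mup7 and 1.43 (1.03 to 1.97) for Mup10. There 1.1% of genes with a mean of at least 10 CPM were at least 2-fold higher in HKO and 1.85% lower, and of the 4 members at 10 CPM or more in both libraries only Mup17 was past 2-fold, while Mup7 reached that mean only through HKO.

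Barcodes of other cell types carried Mup20 and Mup3 as well. In T and NK-like barcodes Mup20 was at 5410.1 CPM (5253 to 5570.5) in WT and 3844 CPM (3729 to 3962) in HKO, and Mup3 at 2879 CPM (2765 to 2996) and 2678 CPM (2582 to 2776). After thinning to 700 UMIs, 98% of 152 WT and 92.1% of 496 HKO T and NK-like barcodes had a Mup20 UMI, beside 94.2% and 95.1% of hepatocyte-like barcodes, so detection did not separate the cell types. The unthinned shares were 99.4% and 99.6% at median depths of 4980.5 and 1918 UMIs. What brought Mup20 UMIs to T and NK-like barcodes was not tested.

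RNA drawn from 1 mixture of fixed composition would keep its genes in 1 ratio, but hepatocyte-like barcodes did not hold a fixed ratio themselves. From periportal to pericentral, their Mup20 UMIs were 25.2%, 29.5% and 36.8% of Alb UMIs in the WT bins. In the HKO bins they were 57.0%, 46.6% and 53.4%. The values below therefore describe proportions, and the source of the RNA was not tested. Relative to Alb, Mup20 UMIs in WT were 30% at free RNA depth, 29.6% in T and NK-like and 29.7% in hepatocyte-like barcodes. In HKO they were 41.0% at free RNA depth and 39.8% in T and NK-like barcodes but 54.1% in hepatocyte-like barcodes. Scaled by Alb from the profile at free RNA depth, T and NK-like barcodes were due 4557 Mup20 UMIs in WT and 4339 in HKO and held 4501 and 4218, a ratio of 0.988 (0.959 to 1.02) and 0.972 (0.943 to 1.00). For Mup3 the same ratio was 0.956 (0.918 to 0.995) and 1.00 (0.965 to 1.04). The Mup20 and Mup3 counts of T and NK-like barcodes thus lay within a few percent of the proportion to Alb found at free RNA depth, while HKO hepatocyte-like barcodes held 1.32 times the Mup20 count due.

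Other classes were matched to varying degrees. The Mup20 ratio of observed to due counts was 0.930 (0.889 to 0.973) in WT and 0.874 (0.827 to 0.923) in HKO endothelial-like barcodes and 0.883 (0.849 to 0.917) and 1.14 (1.10 to 1.19) in macrophage-like barcodes. For B and plasma-like barcodes this ratio was 0.985 (0.922 to 1.05) and 0.876 (0.828 to 0.926). Mup11 departed in HKO T and NK-like barcodes, with 33 UMIs where 19.3 were due, but held 6 where 14.3 were due in WT. Mup7 and Mup10 had 0 to 7 UMIs in each of these classes, too few to set against their level in hepatocyte-like barcodes. A count of 0, as for Mup10 in WT endothelial-like barcodes, allows a level of up to 5.80 CPM there, and 0 Mup7 UMIs in HKO macrophage-like barcodes up to 10.3 CPM. Alb, Mup20 and Mup3 took a smaller share of the UMIs of T and NK-like and endothelial-like barcodes in HKO than in WT, while Mup11 was higher in HKO T and NK-like barcodes, at 30.1 CPM (20.7 to 42.2) against 7.21 CPM (2.65 to 15.7) in WT. The HKO to WT ratio of the CPM values was 0.711 (0.681 to 0.741) for Mup20 and 0.930 (0.881 to 0.982) for Mup3 in T and NK-like barcodes and 0.685 (0.638 to 0.736) and 0.831 (0.758 to 0.911) in endothelial-like barcodes, with Alb at 0.528 (0.515 to 0.541) and 0.533 (0.512 to 0.555). Macrophage-like barcodes had ratios of 1.30 (1.23 to 1.37) for Mup20 and 1.36 (1.27 to 1.46) for Mup3, beside 0.733 (0.709 to 0.757) for Alb.

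**Figure D5:**
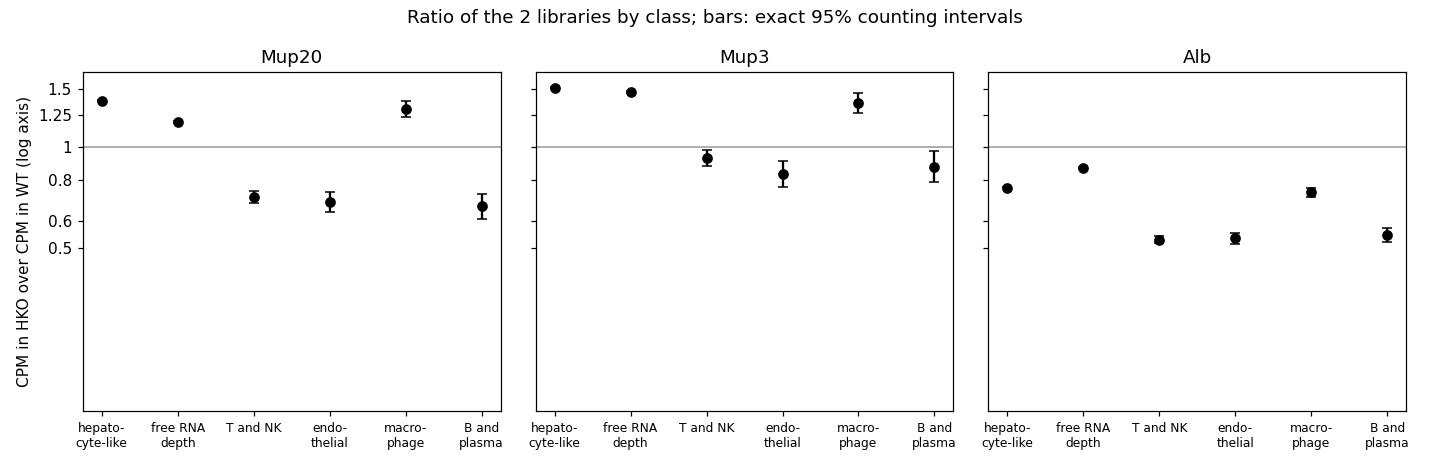
HKO level divided by WT level (log axis) of Mup20, Mup3 and Alb in 6 classes of barcodes, each level in CPM, with exact 95% counting intervals as bars and a grey line at 1. Mup20 and Mup3 lie above 1 in hepatocyte-like and macrophage-like barcodes and at free RNA depth and below 1 in T and NK-like, endothelial-like and B and plasma-like barcodes, while Alb lies below 1 in all 6.

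Across hepatocyte-like barcodes with at least 5000 UMIs (1911 in WT and 1652 in HKO, which share their library, its free RNA and the total they are scaled to), log-scaled Mup3 and Mup20 had Pearson correlations of 0.41 in WT and 0.64 in HKO. Mup11 and Mup17 had 0.54 and 0.58, whereas Mup11 and Mup20 had 0.055 and -0.055. With Alb, the correlation of Mup3 was 0.54 and 0.61 and that of Mup20 0.29 and 0.51, so Mup3 was no more alike Mup20 than Alb in WT. Among 2623 genes outside the family with a mean of at least 50 CPM, those most alike the summed members, by the lower of the correlations in the 2 libraries, were Apoc3 (0.55 and 0.70), B2m (0.52 and 0.64), Apoa2 (0.52 and 0.66), Serpina1b (0.49 and 0.63) and Selenop (0.49 and 0.61). Apart from B2m, the light chain of class I major histocompatibility molecules, these genes encode proteins that the liver secretes.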

How the data were processed

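Livers of WT and HKO mice were profiled by droplet-based single-cell RNA-seq (10x Genomics, 3′ UMI counts), 1 library per genotype, each a pool of 3 livers. Raw counts per gene and barcode, whole numbers with no normalization, were deposited by the authors. The matrix headers name Cell Ranger 7.1.0, and the submitters' processing notes list Cell Ranger, R 3.0, Seurat 3 and the mm10 build. Whether intronic reads were counted is not given in the sources used here. A list of the WT barcodes was not used here, so barcodes shared by both libraries could not be counted.

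Barcodes with at least 500 UMIs, 300 genes and at most 50% mitochondrial UMIs were kept (29620 in WT and 18247 in HKO). The Scrublet scores in scanpy 1.11.5 marked 0 doublets with the automatic threshold, so the highest-scoring 0.8% per 1000 barcodes were left out, 23.7% in WT and 14.6% in HKO. Of these 7019 WT and 2664 HKO barcodes, 148 and 49 had at least 5000 UMIs, so mostly shallow barcodes were removed, which lowers the shares at free RNA depth. Both libraries were clustered together (10000 counts per barcode, log scale, 2000 variable genes without Mup genes, 30 components, 15 neighbours, Leiden resolution 1.0), and clusters were named from marker lists (at least 3 markers in at least 10% of barcodes and 2-fold over the rest). Barcodes with mixed markers (173 and 579) entered no class. Unmarked barcodes of at least 2 times the commonest depth were hepatocyte-like, and the rest were of free RNA depth. UMIs were summed per class and divided by all UMIs of the class (CPM), with exact Poisson intervals, exact conditional binomial intervals for ratios and exact binomial intervals for shares, all at 95% and for counting error only. Barcodes are not replicates, so no p-value was computed. Transcripts were compared with mafft 7.526 and by windows of 90 bases among GENCODE M21 transcripts. Ratios, intervals and zone scores were tested on simulated data.

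All 6 members were named. Of other Mup genes, those with a mean of at least 10 CPM were named, and of other lists the genes past 2-fold and up to 4 of the most abundant. The members, lists and comparisons were chosen with earlier results of these data known. Depth, weighting, scaling, doublet, mitochondrial, clustering and zone list choices were varied, and the effects are given in the closing section.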

Additional observations from a re-analysis of the deposited data

Results flagged for a closer look

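Each of the following pairs of values pointed in opposite directions beyond their counting intervals, and the difference between them was not tested, since there was 1 library per genotype. For Mup20, the HKO to WT ratio was 1.76 in the periportal and 1.10 in the middle bin of the zone score but 0.937 in the pericentral bin. For Mup17 it was 4.48 in the pericentral and 0.752 in the middle bin.

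Between classes of barcodes, the HKO to WT ratio of Mup20 was 1.38 in hepatocyte-like barcodes, 1.19 at free RNA depth and 1.30 in macrophage-like barcodes, and 0.711 in T and NK-like, 0.685 among endothelial-like and 0.664 for B and plasma-like barcodes. The Mup3 ratio was 1.5, 1.46 and 1.36 in the first 3 classes and 0.930, 0.831 and 0.875 in the last 3.

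Between clusters of hepatocyte-like barcodes, the Mup20 ratio was 1.39 in the cluster led by Rab26os, 1.47 in that led by AY036118, 1.11 in that led by mt-Nd4l and 1.07 in that led by mt-Nd6, and 0.537 in the cluster led by Mt1 and 0.673 in that led by Egfros. For Mup3 the ratio was 1.51 in the Rab26os, 1.59 in the AY036118, 1.29 in the mt-Nd4l and 1.09 in the Mt1 cluster and 0.830 in the Egfros cluster.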

How the results depend on the processing

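No paired analysis was possible because each genotype had 1 library. The summed HKO to WT ratio in hepatocyte-like barcodes was 1.42 and stayed above 1 under all 14 alternatives: 1.46 with at least 5000 UMIs in both libraries, 1.38 at 5000 to 20000 UMIs, 1.39 with no depth minimum, 1.37 thinned to 1500 UMIs, 1.36 with barcodes weighted equally, 1.45 over nuclear genes, 1.45 by the median of ratios over genes, 1.88 relative to Alb, 1.44 after free RNA subtraction, 1.40 without the top 1% of barcodes, 1.44 at up to 20% mitochondrial UMIs and, chosen after seeing the data, 1.43 within the commonest cluster. Other clusters were not among these alternatives, and in some the summed ratio was below 1. It was 0.672 (0.663 to 0.680) in the cluster led by Mt1 and 0.733 (0.714 to 0.752) in that led by Egfros. In the clusters led by AY036118, mt-Nd4l and mt-Nd6 it was 1.52, 1.18 and 1.05. The summed hepatocyte-like to free RNA depth ratio, 1.004 in WT and 1.11 in HKO, was 0.969 and 1.03 with barcodes weighted equally, which turned the WT direction, 1.11 and 1.15 over nuclear genes, 1.07 and 1.13 at up to 20% mitochondrial UMIs, and in HKO 1.14 with at least 5000 UMIs and 1.10 with doublets kept. Among member ratios whose counting interval left out 1, 3 directions turned too: Mup20 in WT to 0.984 with equal weights, and Mup3 to 1.04 in WT and 1.004 in HKO over nuclear genes. Mup10 ratios, whose intervals included 1, crossed it as well, the WT hepatocyte-like to free RNA depth ratio to 0.912 with equal weights and the HKO to WT ratio to as low as 0.880 at up to 20% mitochondrial UMIs. The summed pericentral to periportal ratio, 0.802 in WT and 0.488 in HKO, stayed below 1 throughout, at 0.902 and 0.608 with no depth minimum, 0.853 and 0.589 with equal weights, 0.766 and 0.474 over nuclear genes, 0.783 and 0.448 after free RNA subtraction, 0.818 and 0.495 with the second zone lists, 0.889 and 0.628 thinned, 0.778 and 0.476 at up to 20% mitochondrial UMIs, and in HKO 0.416 with at least 5000 UMIs and 0.502 with doublets kept. The share of member UMIs at free RNA depth, 50.4% and 24.4%, was 57.5% and 27.6% with doublets kept and 55.2% and 24.2% at up to 20% mitochondrial UMIs. Genes at least 2-fold higher and lower in HKO numbered 30 and 66 at a mean of 10 CPM and 161 and 166 at a mean of 1 CPM. Keeping the Mup genes among the variable genes moved none of these sums beyond its counting interval. The causes of these shifts were not tested. Counting intervals are narrow because the counts are large, so most shifts pass them, and with 1 library per genotype the spread between animals is unknown. For Mup17, no zone ratio could be given after thinning in WT or after free RNA subtraction in HKO, since at most 3 UMIs were left in a bin.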
